A study of Rattus norvegicus with 14 samples.

Results

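Retinoid handling genes were followed in rat liver through a list of 7 genes: the retinaldehyde dehydrogenases Aldh1a1, Aldh1a3 and Aldh1a7, the retinol-esterifying enzyme Lrat, the plasma retinol carrier Rbp4, the retinoic acid hydroxylase Cyp26a1 and the retinoic acid receptor Rarb. A gene was taken where the platform annotation gave a probe exactly 1 symbol equal to its name, which held for 5 of the 7 (Aldh1a1, Aldh1a3, Lrat, Rbp4 and Cyp26a1), of 14506 genes in all. Each of the 5 had 1 such probe. The signal of Aldh1a7 and Rarb is not analysed here. Livers came from female lean Zucker rats, about 15 weeks old, that carry the fa mutation on one chromosome copy (fa/+). In the extract group, 7 rats ate a standard diet with 0.05% by weight of a rosemary extract, of which 40% was carnosic acid (a diterpene of rosemary leaves), for 64 days. In the control group, 7 rats ate the standard diet alone for 64 days. Each array held the RNA of 1 rat, and values are log2 RMA values, so that a difference of 1 is a doubling of signal.

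Vitamin A is oxidised in steps, retinol to retinaldehyde by reversible dehydrogenases and reductases, and retinaldehyde to retinoic acid by the Aldh1a enzymes. Retinoic acid binds the RAR receptors, which act on target genes with RXR partners, and CYP26 enzymes hydroxylate it for disposal. In the liver, hepatocytes take up dietary retinoid and secrete retinol bound to RBP4 and transthyretin, while stellate cells store it as retinyl esters made by LRAT.

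Of the 5 genes, 1 rose with the extract (Aldh1a1), 1 fell (Aldh1a3) and 3 did not pass, at a Benjamini-Hochberg adjusted p of 0.05 in limma over all 14506 genes. Over all genes 3.15% passed, 2.00% higher and 1.15% lower. Log2 folds had a median of -0.05 for the 5 genes, against -0.001 for all genes. The 14 arrays had medians over genes between 6.00 and 6.18 and correlated pairwise between 0.984 and 0.997. Control rat 1 and extract rat 4 had the lowest array weights (0.41 and 0.463); without both, the same number of the 5 genes passed (2). All 19 measured hepatocyte markers had means above 5.10, the median of all probes in extract arrays, and limma called 0 of them (0 at an unadjusted p under 0.05; 0 in the unequal-variance test). Their median log2 fold was -0.01, and their linear signal summed to 138597 to 146861 in extract rats against 136000 to 150833 in control rats.

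**Figure D1:**
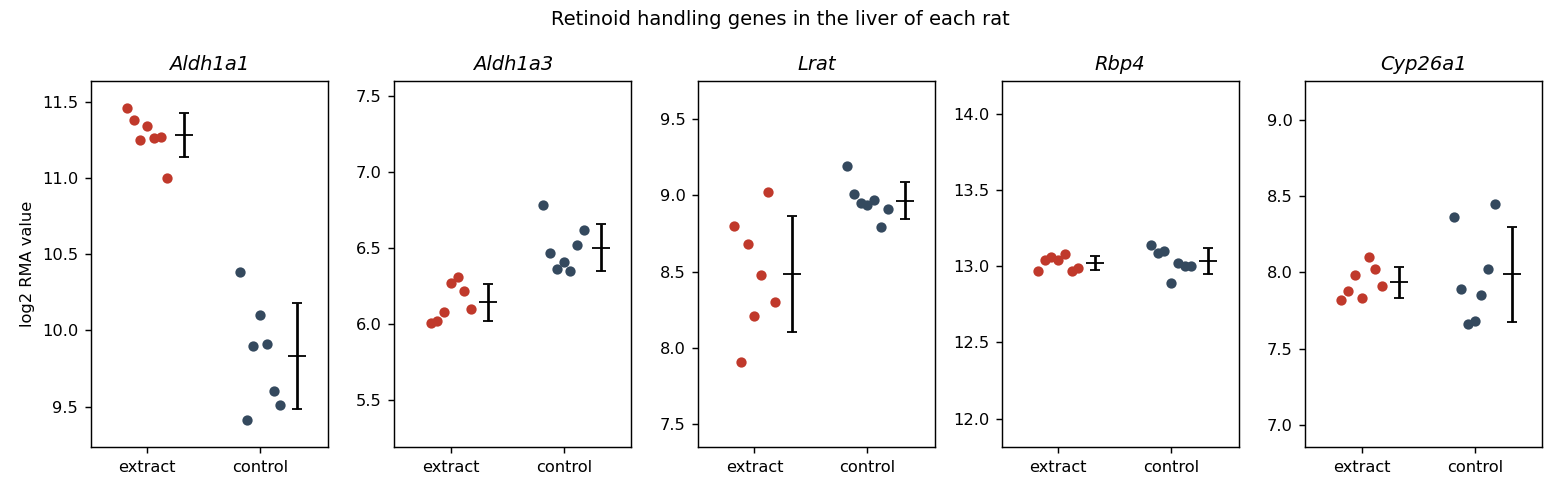
Log2 RMA values of the 5 genes in each rat (points; 7 extract rats on the left and 7 control rats on the right of each panel), with the group mean and SD as a bar beside the points; every panel spans the same range in log2 units. Aldh1a1 lies above every control rat and Aldh1a3 below every control rat in all 7 extract rats, Lrat is spread out in extract rats (7.91 to 9.02), and Rbp4 and Cyp26a1 overlap between the groups.

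Aldh1a1, a cytosolic enzyme that oxidises retinaldehyde to retinoic acid and also clears other aldehydes, rose 2.73-fold. Its signal ran between 11.00 and 11.46 in extract rats, with a median of 11.27, and between 9.41 and 10.38 in control rats, with a median of 9.90. The groups did not overlap: the lowest extract rat (rat 7) lay above the highest control rat (rat 1). Over all genes 1.09% were higher without overlap. The means were 11.28 ± 0.15 in extract rats and 9.83 ± 0.35 in control rats (SD, n = 7 each), and this makes a log2 fold of 1.45 ± 0.13 (SE; 95% interval 1.18 to 1.72; limma adjusted p = 1.60e-06). By size of rise it ranked 18 among the 14506 genes, and by p it ranked 13. Across the 25 alternative settings the fold lay between 1.38 and 1.54 and the adjusted p between 8.92e-08 and 0.00297. The extract rats were also closer together than the control rats, with an SD of 0.15 against 0.35, a difference that was not tested.

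The annotation ties the Aldh1a1 probe to 2 RefSeq mRNA records, of which 1 stands under Aldh1a1 in the GRCr8 gene table and 1 is not in that table. The signal may therefore include a close relative of Aldh1a1, and how far the probe separates such copies was not tested.

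Aldh1a3, another retinaldehyde dehydrogenase, moved the other way and less. Its signal was 6.01 to 6.31 in extract rats (median 6.10), against 6.35 to 6.78 in control rats (median 6.47), so that all 7 extract rats lay below all 7 control rats. The gap between the groups was narrow: extract rat 5 stood at 6.31 and control rat 5 at 6.35. Over all genes 0.455% were lower without overlap. The log2 fold was -0.36 ± 0.08 (SE; 95% interval -0.52 to -0.19; limma adjusted p = 0.015), from means of 6.14 ± 0.12 in extract rats and 6.50 ± 0.16 in control rats (SD, n = 7 each). RMA compresses differences where signal is close to background, and these means lay little above 5.10. The call held without each single rat in turn (adjusted p 0.0144 to 0.039). The shift of Aldh1a1 differed from that of Aldh1a3 by 1.81 on the log2 scale. An exact permutation test over 3432 assignments of rats gave a two-sided p of 5.83e-04, the smallest this design can give. The adjusted p of this permutation test was 0.00117 over the 2 differences that could be tested. This outcome was fixed in advance, because each gene already separated the groups, in opposite directions. It adds no support to those separations.

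Aldh1a2, a further retinaldehyde dehydrogenase, averaged 3.74 ± 0.21 in extract rats and 3.86 ± 0.19 in control rats (SD, n = 7 each), below the median of all probes, with a log2 fold of -0.13 (limma adjusted p = 0.62). In the wider list of 13 measured aldehyde dehydrogenases outside the 5 genes, 1 rose, 0 fell and 12 did not pass, with a median log2 fold of 0.02; without control rat 1, 2 passed. The one that rose was Aldh1l1, a folate enzyme that oxidises formyltetrahydrofolate and does not make retinoic acid. It measured 10.50 to 11.02 in extract rats and 9.76 to 10.48 in control rats, without overlap (1.57-fold, limma adjusted p = 0.00122).

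Lrat, which esterifies retinol for storage and in liver is a stellate cell enzyme, was lower in most extract rats but did not pass. Its signal was 7.91 to 9.02 in extract rats, with a median of 8.48, and 8.79 to 9.19 in control rats, with a median of 8.95. In 5 of 7 extract rats it lay below every control rat; extract rat 1 (8.80) and extract rat 6 (9.02) fell within the control range. The log2 fold was -0.48 ± 0.13 (SE; 95% interval -0.76 to -0.20; unadjusted p = 0.00201, limma adjusted p = 0.0588), with means of 8.48 ± 0.38 in extract rats and 8.97 ± 0.12 in control rats (SD, n = 7 each). The outcome turned on single rats: the adjusted p was 0.0137 without extract rat 6 and 0.0467 without extract rat 1, against 0.107 without extract rat 2, the lowest. In the unequal-variance test per gene it was 0.215. The fold was negative under all 25 alternative settings, between -0.57 and -0.39.

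Among other stellate cell genes most folds were negative. Of 25 measured stellate markers, 0 rose, 3 fell and 22 did not pass, and 19 of the 25 had negative log2 folds (median -0.20), whereas 49.7% of folds over all genes were positive. Folds were negative too in 13 of 14 macrophage markers (median -0.26) and 8 of 8 endothelial markers (median -0.15). Bile duct markers differed, with 5 of 7 folds positive (median 0.14), and 5 of these 7 had means below 5.10. Colec11, a collectin, fell by 0.36 on the log2 scale with all 7 extract rats below all control rats (limma adjusted p = 0.0119). The platelet-derived growth factor receptors Pdgfra and Pdgfrb fell by 0.38 and 0.37 (limma adjusted p = 0.0374 and 0.0415), but the calls were lost under 13 and 16 of 25 alternatives, with adjusted p of 0.124 and 0.116 in the unequal-variance test. After median centring, and when every probe of the table was tested, 1 of the 25 markers passed in place of 3; 1 passed also without extract rat 1, 2 or 5 and without control rat 2, 6 or 7, each left out alone. Reln and Des had log2 folds of -0.20 and -0.24, and the fibre-forming collagen genes Col1a1, Col1a2 and Col3a1 of 0.09, 0.03 and -0.09. None of these 5, which were chosen after their values were seen, passed. Timp1, Vim and Sparc had log2 folds of -0.16, -0.20 and -0.21, and Acta2 and Tagln of 0.04 and 0.16. They were likewise named after their values were seen, and none of them passed. The summed linear signal of the 25 markers was 4326 to 5569 in extract rats and 5164 to 6340 in control rats, and 3 of the 25 had means below 5.10. In bulk liver, fewer cells of a type and less RNA per cell cannot be told apart.

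Rat by rat, the mean log2 signal of the 25 stellate markers was 6.68 to 7.00 in extract rats and 6.90 to 7.15 in control rats. Extract rat 2, lowest for Lrat (7.91), was also lowest for the marker mean (6.68). Deviations of Lrat from its group mean went with those of the marker mean over 14 rats at Pearson r = 0.63 (permutation p = 0.0202, adjusted p = 0.152) and Spearman rho = 0.51 (permutation p = 0.0802, adjusted p = 0.258), a relation that did not pass after adjustment over the 15 relations computed between the 5 genes and 3 marker lists. It was 0.76 within extract rats and 0.42 within control rats, and 0.45 without the 2 rats farthest from the median on the marker mean. These relations were added after the values had been seen, and the part of stellate cell content in the Lrat difference was not tested.

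**Figure D2:**
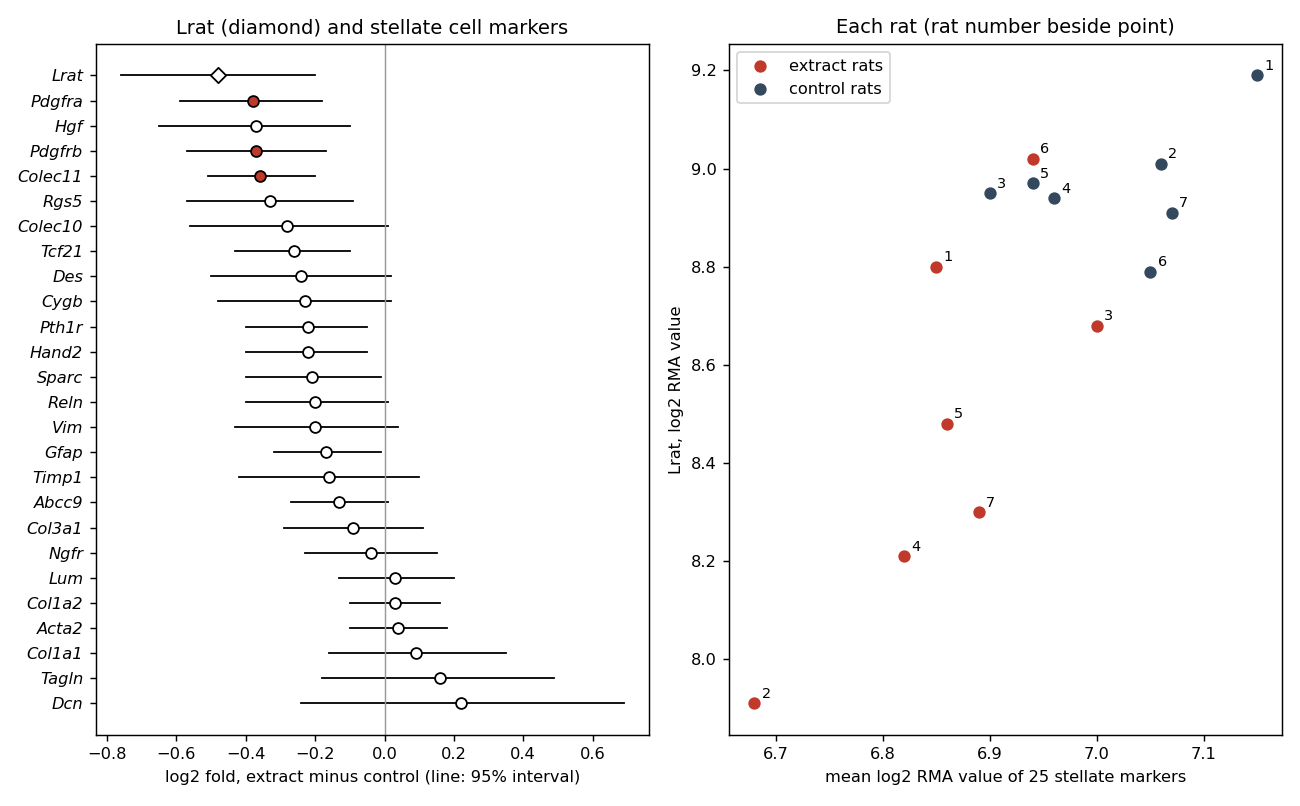
Left, log2 folds (extract minus control) of Lrat (diamond) and 25 stellate cell markers (circles) with 95% intervals, filled where the adjusted p was under 0.05; 19 of the 25 markers lie left of 0 and 3 are filled. Right, Lrat against the mean log2 signal of the 25 markers in each rat, numbered by rat within its group; extract rat 2 is lowest on both axes.

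Rbp4, the carrier that hepatocytes secrete to move retinol through blood, had nearly equal signal in both groups. Its signal was 12.97 to 13.08 in extract rats (median 13.04) and 12.89 to 13.14 in control rats (median 13.02), and the extract range lay inside the control range. The log2 fold was -0.01, with a 95% interval of -0.13 to 0.11 (limma adjusted p = 0.958). Ttr, which encodes transthyretin, the partner of RBP4 in plasma, averaged 13.50 ± 0.05 in extract rats and 13.60 ± 0.08 in control rats (SD, n = 7 each; log2 fold -0.11, limma adjusted p = 0.396). The fold of Rbp4 exceeded that of Ttr by 0.09 on the log2 scale (exact permutation test, two-sided, p = 0.0111, adjusted p = 0.0111), but by 0.02 after repeated quantile normalization (adjusted p = 0.473). Both genes lie near the top of the measured range, which ends at 14.01, and saturation was not tested.

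Cyp26a1, the cytochrome P450 that clears retinoic acid and is itself induced by it, did not differ beyond the spread between rats. Its signal was 7.82 to 8.10 in extract rats (median 7.91) and 7.66 to 8.45 in control rats (median 7.89), and again the extract range lay inside the control range. Control rats 1 and 7 stood highest (8.36 and 8.45), above every extract rat, and control rats 3 and 4 stood lowest (7.66 and 7.68). Means were 7.93 ± 0.10 in extract rats and 7.99 ± 0.31 in control rats (SD, n = 7 each). The log2 fold was -0.05 with a 95% interval of -0.29 to 0.18 (limma adjusted p = 0.896), and its sign changed under some alternative settings (-0.11 to 0.04).

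The promoters of the gene that moved most and of the gene that responds directly to retinoic acid are shown for comparison, from RefSeq on GRCr8, as the 250 bases before the start that its promoter table gives, 5′ to 3′ on the gene's strand. For Cyp26a1, Lrat and Rbp4 this start is the edge of the annotated gene span. For Aldh1a1 and Aldh1a3 the window lies inside a longer annotated span, so that starts farther upstream may exist and were not searched. Windows that also hold the 50 bases after the start were searched on both strands for GTTCA followed after any 6 bases by GTTCA, the core of the retinoic acid response element with direct repeats spaced by 5 bases, and for TGACNNNGC, the core of the antioxidant response element; no match of one overlapped a match of the other. Capitals mark a match, and the 2 windows are chr1:244883572-244883821, plus strand, for Cyp26a1 and chr1:227537370-227537619, plus strand, for Aldh1a1.
Cyp26a1: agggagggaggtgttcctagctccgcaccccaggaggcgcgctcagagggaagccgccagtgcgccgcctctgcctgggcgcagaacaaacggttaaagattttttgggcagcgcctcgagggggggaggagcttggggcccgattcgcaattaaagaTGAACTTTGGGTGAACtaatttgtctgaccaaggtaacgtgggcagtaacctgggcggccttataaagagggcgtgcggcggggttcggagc
Aldh1a1: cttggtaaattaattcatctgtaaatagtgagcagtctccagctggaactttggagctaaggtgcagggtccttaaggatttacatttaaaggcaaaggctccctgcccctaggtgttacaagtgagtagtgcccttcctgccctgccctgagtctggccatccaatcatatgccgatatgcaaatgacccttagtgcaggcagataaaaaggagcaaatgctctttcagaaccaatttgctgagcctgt
The retinoic acid element core stood in the Cyp26a1 window on the strand opposite the gene, 92 to 77 bases before the start, and in 0.418% of 33469 promoter windows of the same length. It was found in none of the windows of Aldh1a1, Aldh1a3, Lrat and Rbp4. The window of Rarb, whose signal is not analysed here, also held it, 26 to 41 bases after the start on the gene's strand. The antioxidant element core was in 12.1% of all windows and in none of those of the 5 genes. A match is a run of letters and not a bound site, and these windows leave out more distant sequence and other starts.

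Beyond the 5 genes, 79 further measured genes were read from lists by role in retinoid metabolism and response. They include the 13 aldehyde dehydrogenases above, and so Aldh1l1, which does not make retinoic acid. Of the 79, 10 rose (12.7%), Aldh1l1 among them, 0 fell and 69 did not pass, with a median log2 fold of 0.01. The shares over all genes were 2.00% higher and 1.15% lower, and every list count that follows can be read beside them. Most of the 10 are Ces1 carboxylesterases or P450s, which are also enzymes of foreign compound metabolism. The lists were chosen with earlier results of these data known, so these shares are no test of the retinoid pathway.

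Among 12 genes of retinyl ester synthesis and hydrolysis, 5 rose, 0 fell and 7 did not pass, with a median log2 fold of 0.18. Carboxylesterases of the Ces1 family, some of which hydrolyse retinyl esters, led them. Ces1f measured 11.40 to 11.76 in extract rats and 10.43 to 10.80 in control rats (2.05-fold, limma adjusted p = 2.29e-07). For Ces1d the ranges were 10.64 to 10.93 in extract rats and 9.48 to 10.14 in control rats (1.98-fold, limma adjusted p = 6.26e-06). Ces1e rose 1.36-fold and Ces1c 1.31-fold. In all of these Ces1 genes each extract rat lay above each control rat, as in 1.09% of all genes. They are close paralogues, and how far their probes separate them was not tested. Dgat1, which esterifies diglycerides and can also esterify retinol, rose by a log2 fold of 0.27 ± 0.07 (SE, limma adjusted p = 0.0423). It was named after its value was seen, as the fifth gene of this list that passed. Leaving out single rats gave 4 to 6 genes.

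Of 15 retinol and retinaldehyde oxidoreductases, 1 rose, 0 fell and 14 did not pass, with a median log2 fold of -0.01. Adh6, an alcohol dehydrogenase, measured 7.34 to 8.03 in extract rats and 6.52 to 7.41 in control rats (1.56-fold, limma adjusted p = 0.0091; 0.0569 in the unequal-variance test per gene). Dhrs3, a retinaldehyde reductase that retinoic acid induces, had a log2 fold of 0.26 (limma adjusted p = 0.296), with 4 of 7 extract rats above all controls. Without extract rat 6, 2 genes of this list passed.

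In the list of enzymes that can oxidise or conjugate retinoic acid, 3 of 7 rose, 0 fell and 4 did not pass, with a median log2 fold of 0.31. These were not CYP26 genes but P450s better known for foreign compounds. Cyp3a23-3a1 measured 11.87 to 12.64 in extract rats and 10.63 to 12.19 in control rats (2.34-fold, limma adjusted p = 8.69e-04). Cyp3a9 rose 1.66-fold (limma adjusted p = 0.0235), a call lost in the unequal-variance test (0.106), with every probe tested (0.0548) and without extract rat 2, 3 or 5 or control rat 7 (0.0512 to 0.0593). Cyp1a1 had a log2 fold of 0.31 with both means below 5.10 (4.15 in extract rats and 3.84 in control rats; limma adjusted p = 0.0243), a call lost without extract rat 2 or 5 or control rat 3 or 5 (0.0523 to 0.0563). Without extract rat 2, and likewise without extract rat 5, 1 of the 7 passed. Cyp26b1, another retinoic acid hydroxylase, named after its value was seen, had a log2 fold of -0.35 ± 0.16 (SE, limma adjusted p = 0.298). Its means were 4.32 in extract rats and 4.68 in control rats. Of the 7 genes, 4 had means below 5.10, Cyp26b1 among them.

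Among 14 genes of retinoid binding, carriage and uptake limma called 0 (1 at an unadjusted p under 0.05; 0 in the unequal-variance test). The median log2 fold was 0.01, and 7 of the 14 had means below 5.10. Cd36, which carries fatty acids and carotenoids into cells, came first by p (log2 fold 0.48, limma adjusted p = 0.0775; 0.0132 without control rat 1).

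Of the receptors and cofactors limma called 0 of 12 (4 at an unadjusted p under 0.05; 0 in the unequal-variance test), while 11 of the 12 folds were negative, with a median of -0.14. The retinoic acid receptor Rara averaged 7.95 ± 0.11 in extract rats and 8.24 ± 0.26 in control rats (SD, n = 7 each; log2 fold -0.29, limma adjusted p = 0.148). Rarg had a log2 fold of -0.30 (limma adjusted p = 0.0928), the RXR partner Rxra of -0.27 (limma adjusted p = 0.333) and Ppard, a related lipid receptor, of -0.45 (limma adjusted p = 0.074). Control rat 1 decided these counts: without it 3 of the 12 passed, with an adjusted p of 0.023 for Rara, 0.0276 for Rarg and 0.032 for Ppard. Over all genes, leaving out control rat 1 also raised the calls from 457 to 621, and the lower calls from 167 to 292. Without control rat 6, and likewise without extract rat 1, 1 gene passed.

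In a list of 11 measured genes known to be induced by retinoic acid, limma called 0 (4 at an unadjusted p under 0.05; 0 in the unequal-variance test). Folds were positive in 5 and negative in 6, with a median of -0.08. Of the 11, 4 had means below 5.10, where RMA compresses differences. Its smallest p was that of Rarg, given above. Without control rat 1, and likewise without extract rat 1, 1 gene of this list passed.

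**Figure D3:**
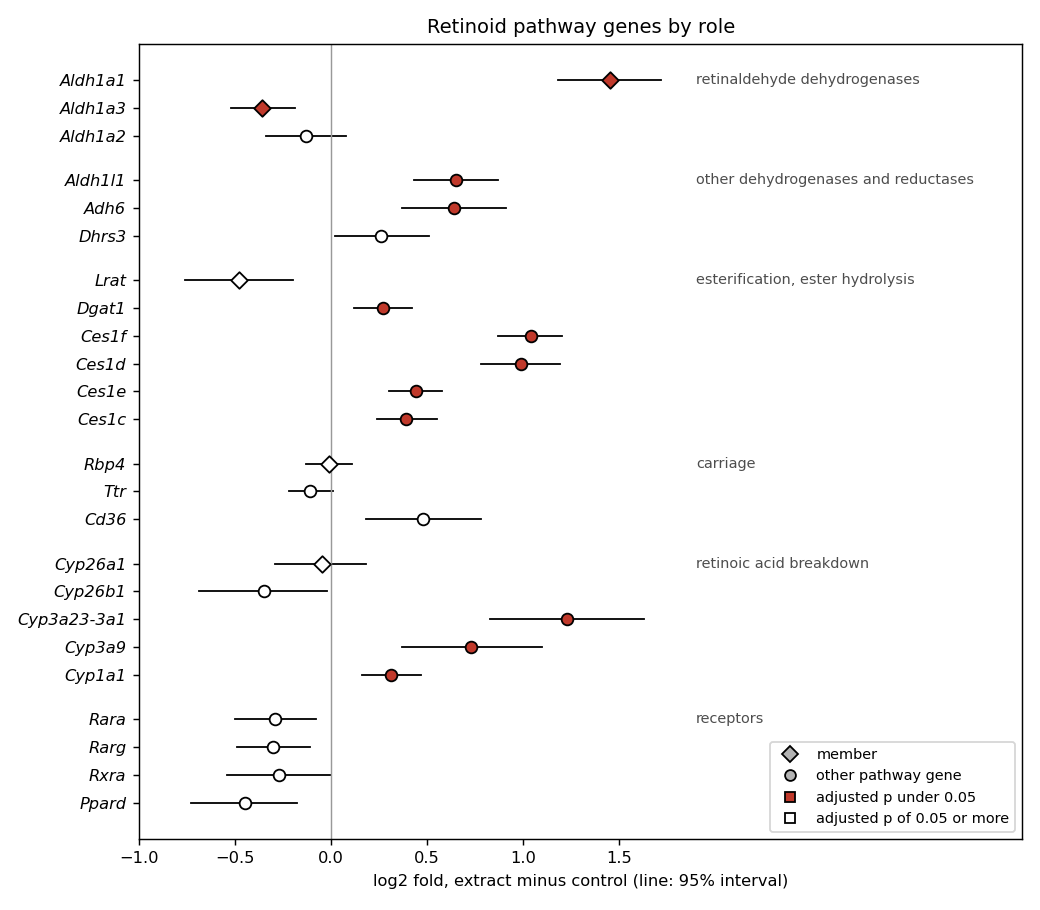
Log2 folds (extract minus control) with 95% intervals for the 5 genes (diamonds) and other named genes of the role lists (circles), by role. Filled symbols had a limma adjusted p under 0.05. Aldh1a1 stands at 1.45 and Aldh1a3 at -0.36, the Ces1 and Cyp3a genes lie right of 0, and Rbp4 and Cyp26a1 lie at 0 within their intervals.

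Aldh1a1 is known in mice as a gene that activators of the xenobiotic receptors CAR and PXR induce. Among 22 other measured CAR and PXR targets, 14 rose, 0 fell and 8 did not pass, with a median log2 fold of 0.64; the list holds both Cyp3a genes named above. Cyp2b2, the phenobarbital-inducible P450, rose 18.9-fold and Nr1i3, which encodes CAR, 5.2-fold. The conjugate exporter Abcc3 rose 3.92-fold and the drug exporter Abcb1a 2.16-fold. In each the groups did not overlap, and over all genes 1.09% were higher without overlap. Of 22 measured targets of NRF2, the factor of the electrophile response, 16 rose, 0 fell and 6 did not pass, with a median log2 fold of 0.84. Abcc2, Abcc3 and Ephx1 are on both lists and are counted among the risers of both. Abcc2 and Ephx1 were named for this overlap, after their values were seen. The NRF2 list also had Akr1b8 (23.8-fold), Akr7a3 (4.61-fold) and Nqo1 (2.94-fold). Whether CAR, PXR or NRF2 had a part in the rise of Aldh1a1 was not tested.

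Within each diet the 5 genes were compared rat by rat, as deviations from the group mean over 14 rats, in 10 pairs. One pair passed, Aldh1a3 with Cyp26a1, at Pearson r = 0.77 (permutation p = 0.00188, adjusted p = 0.0188) and Spearman rho = 0.77 (permutation p = 0.00311, adjusted p = 0.0311). It was 0.56 within extract rats and 0.89 within control rats, where control rats 1 and 7 were high for both genes. Without the 2 rats farthest from the median of Aldh1a3, r was 0.66. The call was lost without extract rat 5, control rat 3 or control rat 6 (adjusted p = 0.0605, 0.0596 and 0.0734), with r at 0.76, 0.74 and 0.77. Leaving out control rat 1, which had the lowest array weight, gave the lowest r, 0.68 (permutation test, adjusted p = 0.0415), and the lowest rho, 0.64. The same 2 genes went with the stellate marker mean at r = 0.57 for Aldh1a3 (permutation p = 0.0408, adjusted p = 0.204) and r = 0.64 for Cyp26a1 (permutation p = 0.0087, adjusted p = 0.13), which did not pass. For the other 9 pairs r lay between -0.07 and 0.35; Aldh1a1 and Lrat had r = 0.20 (permutation p = 0.314, adjusted p = 0.786). Without the 2 rats farthest from the median of Aldh1a1, its r was -0.73 with Cyp26a1 (-0.07 over all 14 rats) and -0.47 with Aldh1a3 (0.14 over all 14 rats), values given without a test.

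**Figure D4:**
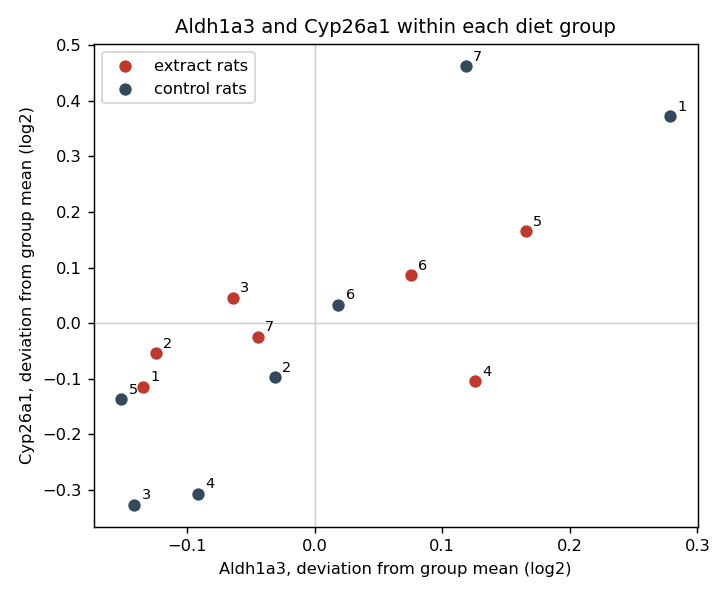
Deviation of Cyp26a1 from its group mean against that of Aldh1a3, in log2 units, for 7 extract and 7 control rats, numbered by rat. Points run from lower left to upper right (r = 0.77), with control rats 1 and 7 at the upper right.

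None of the 15 relations between the 5 genes and the marker means passed on Pearson's r or on Spearman's rho. Against the hepatocyte mean, which was 12.71 ± 0.03 in extract rats and 12.72 ± 0.05 in control rats (SD, n = 7 each), r was -0.44 for Aldh1a3 (permutation p = 0.16, adjusted p = 0.342), -0.38 for Aldh1a1 (permutation p = 0.276, adjusted p = 0.459), -0.36 for Cyp26a1, -0.23 for Lrat and 0.14 for Rbp4. For Aldh1a1 it was -0.75 within extract rats and -0.29 within control rats, and 0.07 without the 2 rats farthest from the median on the marker mean. Against the stellate mean r was 0.16 for Rbp4 and -0.11 for Aldh1a1, and for Aldh1a3 it was 0.17 within extract rats and 0.93 within control rats. Against the mean of macrophage markers, which was 8.63 ± 0.10 in extract rats and 8.90 ± 0.12 in control rats (SD, n = 7 each), r was 0.47 for Cyp26a1 (permutation p = 0.133, adjusted p = 0.338; rho = 0.57, permutation p = 0.0453, adjusted p = 0.226), 0.44 for Aldh1a3 (permutation p = 0.135, adjusted p = 0.338), 0.42 for Lrat, 0.36 for Rbp4 and -0.11 for Aldh1a1. For Aldh1a1 it was -0.69 within extract rats and 0.10 within control rats, and -0.71 without the 2 farthest rats. The difference between r in extract rats and r in control rats was not tested for any gene.

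Among all other genes, the patterns over 14 rats (deviations from the group means) most like that of Aldh1a1 were those of Hmgn1 (r = 0.89), Tk1 (0.88) and Snu13 (0.85). Their own log2 folds between the diets were -0.16, 0.14 and 0.10, and none passed. For Aldh1a3 they were Cldn34e (0.90), C1qc (0.90) and Oaz3 (0.87), with log2 folds of -0.05, -0.19 and 0.05, none of which passed. C1qc is a complement gene of macrophages. They are the highest of 14505 correlations each and are given as a description.

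Markers of the other liver cells differed as follows. Of 14 measured markers of Kupffer cells and macrophages, 2 fell (Marco, log2 fold -0.73, and Vsig4, -0.51) and 12 did not pass, with 13 negative folds and a median of -0.26; their summed signal was 6723 to 8144 in extract rats and 8022 to 10105 in control rats. After repeated quantile normalization 5 of the 14 passed, as did 5 without extract rat 7, against 1 without extract rat 1 and 1 without extract rat 2. limma called 0 of 8 endothelial markers (2 at an unadjusted p under 0.05; 0 in the unequal-variance test), all with negative folds and a median of -0.15; Pecam1 came first (-0.24, limma adjusted p = 0.203), and the sums were 4265 to 6583 in extract rats and 5888 to 6421 in control rats. Of 7 bile duct markers 1 fell, Prom1 (log2 fold -2.22), while 5 of the 7 folds were positive, with a median of 0.14. Sums were 206 to 345 in extract rats and 415 to 640 in control rats, and 5 of the 7 lay below 5.10. These sums include Prom1, whose log2 signal was 5.42 to 7.07 in extract rats and 7.83 to 8.94 in control rats. Sums without Prom1 were not computed, so they do not describe the other bile duct markers. The part of these cells in the differences of Aldh1a1 and Aldh1a3 was not tested.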

How the data were processed

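Liver RNA of 14 rats (7 per group) was hybridised with a single array for each animal, per the labels' protocols. The authors deposited log2 values, 29215 probes with 14 columns, between 1.95 and 14.01; the log2 scale was read from this range. The submitters' processing notes name Affymetrix Expression Console 1.1.2 and RMA; options and genome build are not given in the sources used here. Folds of dim probes are compressed by RMA, and detection calls were not used. The sample labels give the extract as 0.05% of the diet, the series title as 0.5%; which is right is unresolved, and the sample labels' value is printed. No batch was used; the number of arrays limits the precision (median SE of a log2 fold 0.087).

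GEO's platform annotation gave the gene names of probes: 15310 had 1 symbol, 323 several and 13582 were unnamed here. Entrez identifiers were matched to NCBI's GRCr8 table (15279 of 15310, 0 symbols changed). The brightest probe per gene gave 14506 genes, tested with limma 3.58.1 in R 4.3.3 (lmFit, eBayes, two-sided, Benjamini-Hochberg, threshold 0.05). Limma was tested on simulated data. Correlations used 100000 permutations within groups, made with Python 3.11.15, numpy 2.4.6 and scipy 1.17.1; 3 of 5 planned differences between genes and 11 of 21 planned pairs needed Aldh1a7 or Rarb and were not run.

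The genes and lists were chosen with earlier results of these data known. Text names the 5 genes, up to 4 passing genes of each list by p (else the first), fixed partners of the pathway and, for each of the 5 that passed, the 3 genes of most like pattern; others are marked as chosen after their values were seen. The fit was repeated with the rat number as a replicate block, with array weights, with trended and robust variance, with a test per gene that allows unequal variances, after quantile normalization or median centring, on genes whose mean reached 6 or that of the median gene, on probe means and on single probes, leaving out each rat, and leaving out the 2 arrays of lowest weight.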

Additional observations from a re-analysis of the deposited data

Results flagged for a closer look

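In 84 groups of 7 rats (42 named genes in both diets), 2 held a rat far from the other 6 by Dixon's criterion, which flags about 1 in 20 groups by chance. Vsig4, a macrophage gene, stood at 10.83 in control rat 1, against 10.37 in the next control rat. Aldh1a2 stood at 3.34 in extract rat 5, against 3.71 in the next lowest extract rat, both below the median of all probes.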

How the results depend on the processing

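Aldh1a1 passed and kept its direction under all 25 alternatives, and Aldh1a3 under 24: with the rat number as a replicate block its adjusted p was 0.0667, so that 1 of the 5 genes passed in place of 2. The rat numbers did not pair the samples (correlations of same-numbered rats' deviations from -0.46 to 0.28, and 2 of 7 rats correlated best with their own number), and the block moved all calls from 457 to 364. Lrat passed under 4 alternatives: without extract rat 1 or 6 (0.0467 and 0.0137) and among genes whose mean reached 6 or that of the median gene (0.044 and 0.0437), where fewer genes are tested. Rbp4 and Cyp26a1 passed under none. Over all genes, array weights gave 694 calls and the unequal-variance test 227; leaving out 1 rat gave 326 to 621 (621 without control rat 1). Array weights gave 1 call in binding and carriage and 1 among receptors. Without the 2 arrays of lowest weight, 2 aldehyde dehydrogenases passed, 1 gene of binding and carriage, 3 receptors and 1 gene induced by retinoic acid. In the unequal-variance test 0 oxidoreductases, 1 stellate marker and 1 macrophage marker passed. Stellate markers numbered 1 after median centring and 1 with every probe tested. Macrophage markers numbered 5 after repeated quantile normalization, 1 with every probe and 1 among genes whose mean reached 6. Marco, with means of 5.41 in extract rats and 6.14 in control rats, did not reach that mean and was not tested there. Leaving out 1 rat gave 1 to 2 aldehyde dehydrogenases, 1 to 2 oxidoreductases, 0 to 1 binding genes, 1 to 4 breakdown genes, 0 to 3 receptors, 0 to 1 genes induced by retinoic acid, 1 to 3 stellate and 1 to 5 macrophage markers, and 0 to 1 correlated pairs. The difference between Rbp4 and Ttr was 0.02 after repeated quantile normalization. The causes of the other changes were not tested. No scaling moved the median fold of all genes by over 0.1.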
